A study of Mus musculus with 11 samples.

Results

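Slc2a1 and 9 further genes that are known to respond to low oxygen were followed in the mouse hippocampus after insulin was given through the nose. The genes were taken by symbol (Slc2a1, P4ha1, P4ha2, Vegfa, Bnip3, Egln1, Egln3, Ndrg1, Ankrd37 and Adm), and all 10 were found among the 46202 gene rows measured. RNA sequencing covered 11 hippocampus libraries of male C3-C57B1/6J mice, spelled as in the labels, aged 2 to 3 months and anaesthetized with isoflurane before the brain was taken. The insulin groups, each at 2.4 IU per nare, held 2 libraries at 15 min, 3 at 1 h and 3 at 6 h. The 15 min libraries are those numbered 1 and 3, the one numbered 2 being not analysed here. The control group held 3 libraries, which titles call saline and another label calls untreated, all at time 0 min. No insulin group therefore had controls sampled at its own time. The labels state an N of 3 per time without tying each library to a separate animal. The p-values therefore reflect library-to-library spread, which may be technical. The question was which of the 10 genes differed from saline at 15 min, 1 h or 6 h after insulin.

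Cells sense oxygen through prolyl hydroxylases of the EGLN family, which mark the alpha subunits of hypoxia-inducible factor (HIF) for destruction while oxygen is present. When oxygen is low, the alpha subunits persist, pair with ARNT and bind DNA at short elements near their target genes. Targets include glucose transporters, glycolytic enzymes, blood vessel growth factors, collagen-modifying enzymes and mitophagy receptors, and EGLN1 and EGLN3 themselves. Several of these genes also answer other signals: Slc2a1, for example, is driven by growth factor signalling. In brain, SLC2A1 (GLUT1) carries glucose across the endothelium of the blood-brain barrier and into astrocytes.

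Values are log2 signals per gene, quantile-normalized between libraries before deposit, with an unknown sequencing depth. By their relation to gene length they behave as reads per kilobase of the whole gene span, so unspliced RNA seems to be included and spliced and unspliced RNA cannot be separated. The rows holding a value numbered 32037 to 32427 per library at 15 min, 32133 to 32640 per library at 1 h, 32703 to 33653 per library at 6 h and 32941 to 33510 per saline library. Over all rows tested, the median log2 change against saline was -0.14, -0.11 and -0.039 at 15 min, 1 h and 6 h. All 9 marker genes of hippocampal neurons, chosen after values were seen, had a value in every library. The lowest was -5.23 for Dsp, a gene of dentate granule neurons, and 7 of them lay above the library median in every library. Their levels were not even between libraries. Neurod6, a gene of pyramidal neurons, ran from -2.07 to 2.55 and Dsp from -5.23 to -1.84, while Bok, of CA3 pyramidal neurons, ran from 1.31 to 2.00. The numbers that end the column names run by group, so library order and insulin cannot be told apart. Of the 6 h libraries, replicate 2 was the lowest or highest of its group in 79.6% of all complete rows and in 8 of the 10 genes. Saline replicate 3 was so in 74.1% of all complete rows and in each of the 10 genes.

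None of the 10 genes passed the test at any time. The tests were moderated tests of limma across all rows, with Benjamini-Hochberg adjustment and a threshold of 0.05. Against saline, 0 of 10 genes passed at 15 min, where 0.239% of all rows did (12 of 66 calls higher, 0.0434% of rows, and the others lower, 0.195%). At 1 h, 0 of 10 passed against 0.877% of all rows (36 of 243 calls higher, 0.13%, and the others lower, 0.747%). At 6 h, 0 of 10 passed and 0% of all rows did. Under median centring the higher calls were 20 of 46 at 15 min and 94 of 201 at 1 h, and under cyclic loess they were 14 of 37 and 57 of 178. At an unadjusted p under 0.05 there were 2 of the 10 genes at 15 min, 2 at 1 h and 0 at 6 h, beside 15.1%, 15.7% and 6.98% of all rows. Those 2 genes were Slc2a1 and P4ha1 at both early times.

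The median log2 change of the 10 genes was 0.055, 0.096 and 0.046 in order of time, each above the median of all rows. At 15 min and at 1 h, every insulin library lay above every saline library for 3 genes, Slc2a1, P4ha1 and Egln1. Among all rows this was so of 6.96% at 15 min and 6.27% at 1 h. For 1 gene, Ankrd37, every insulin library lay below every saline library at both times, which held for 31.1% of all rows at 15 min and 21.5% at 1 h. These shares count each time alone, and those for both early times together are not given here. At 6 h no member lay wholly above or below saline, beside 4.31% of all rows wholly above and 8.78% wholly below. In bulk tissue, fewer cells of a type and less RNA per cell cannot be told apart.

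**Figure D1:**
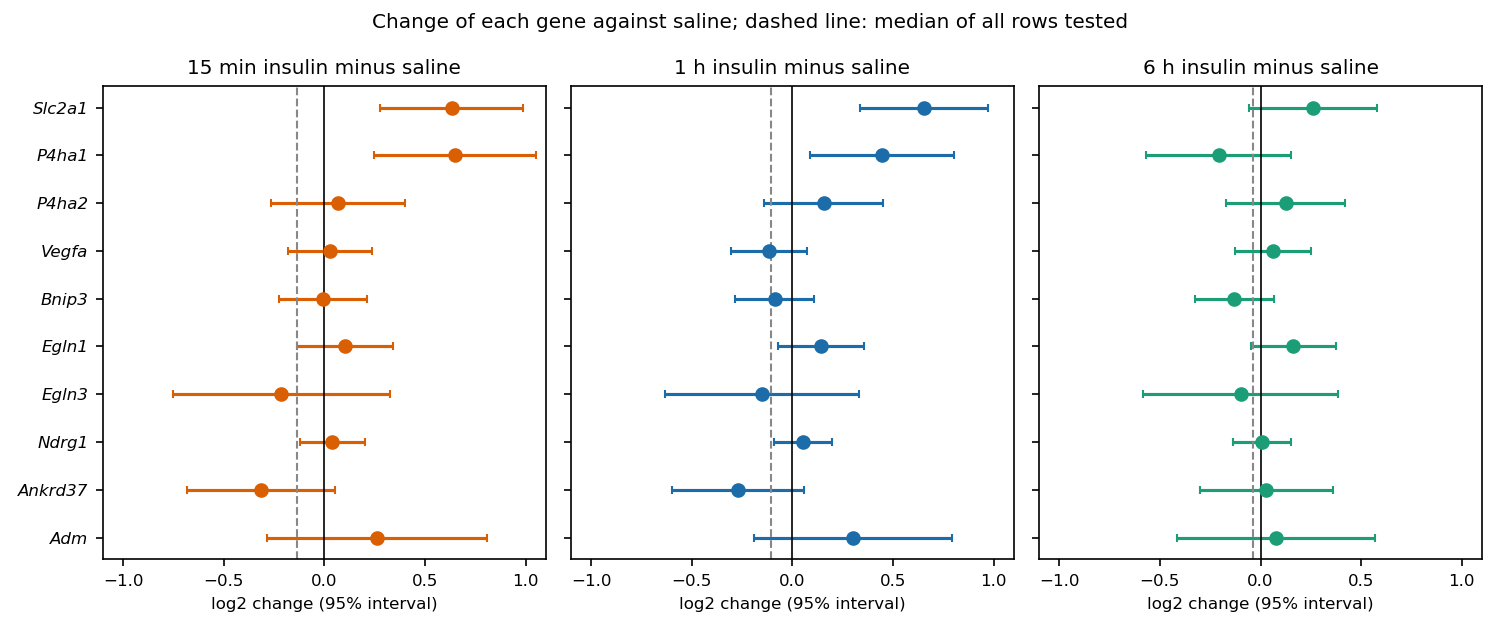
Log2 change of each of the 10 genes against saline at 15 min, 1 h and 6 h, with the 95% interval of the limma fit; the dashed line is the median of all rows tested. The intervals of Slc2a1 and P4ha1 lie above 0 at 15 min and 1 h, every other interval spans 0, and no gene passed the test across all rows.

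Slc2a1, the glucose transporter, had the smallest p of the 10 genes at each of the 3 times against saline. The gene lies on chr4:119108745-119137330, forward strand of GRCm38.p6. Its log2 signal was 0.75, 0.50 and 0.45 with saline, 1.16 and 1.24 at 15 min, 1.16, 1.37 and 1.13 at 1 h, and 0.73, 1.16 and 0.59 at 6 h. All 5 libraries of the early times lay above all saline libraries. At 6 h, replicate 2 lay among the early values, while replicates 1 and 3 lay within the saline range.

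The Slc2a1 signal averaged 1.20 ± 0.052 at 15 min against 0.57 ± 0.16 with saline (SD, n = 2 and n = 3), a log2 change of 0.63 (SE 0.16, 95% interval 0.28 to 0.99). That is a 1.55-fold difference with an adjusted p of 0.142 in limma, and 4.11% of all rows had a larger change. At 1 h it averaged 1.22 ± 0.13 against 0.57 ± 0.16 with saline (SD, n = 3 each), a log2 change of 0.65 (SE 0.14, 95% interval 0.34 to 0.97), or 1.57-fold. The limma adjusted p was 0.0688, and 3.48% of all rows had a larger change. Without 6 h replicate 2, which takes part in this comparison only through the shared estimate of the spread, the adjusted p at 1 h was 0.0192 and Slc2a1 passed. Over all rows, 477 passed at 1 h in that fit (98 higher), beside 243 (36 higher) with every library.

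At 6 h Slc2a1 averaged 0.83 ± 0.29 against 0.57 ± 0.16 with saline (SD, n = 3 each), a log2 change of 0.26 (SE 0.14, limma adjusted p = 0.721). Without 6 h replicate 2 that change was 0.094. Over all 8 insulin libraries the change was 0.50 (SE 0.15, limma adjusted p = 0.262), and in that comparison 0 of the 10 genes and 0.119% of all rows passed, with 1 of the 10 at an unadjusted p under 0.05, beside 12.1% of all rows. By mean level the order was 1 h, 15 min, 6 h, saline. The libraries of 1 h and 15 min overlapped, as did those of 6 h and saline, whereas those of 15 min and 6 h did not.

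**Figure D2:**
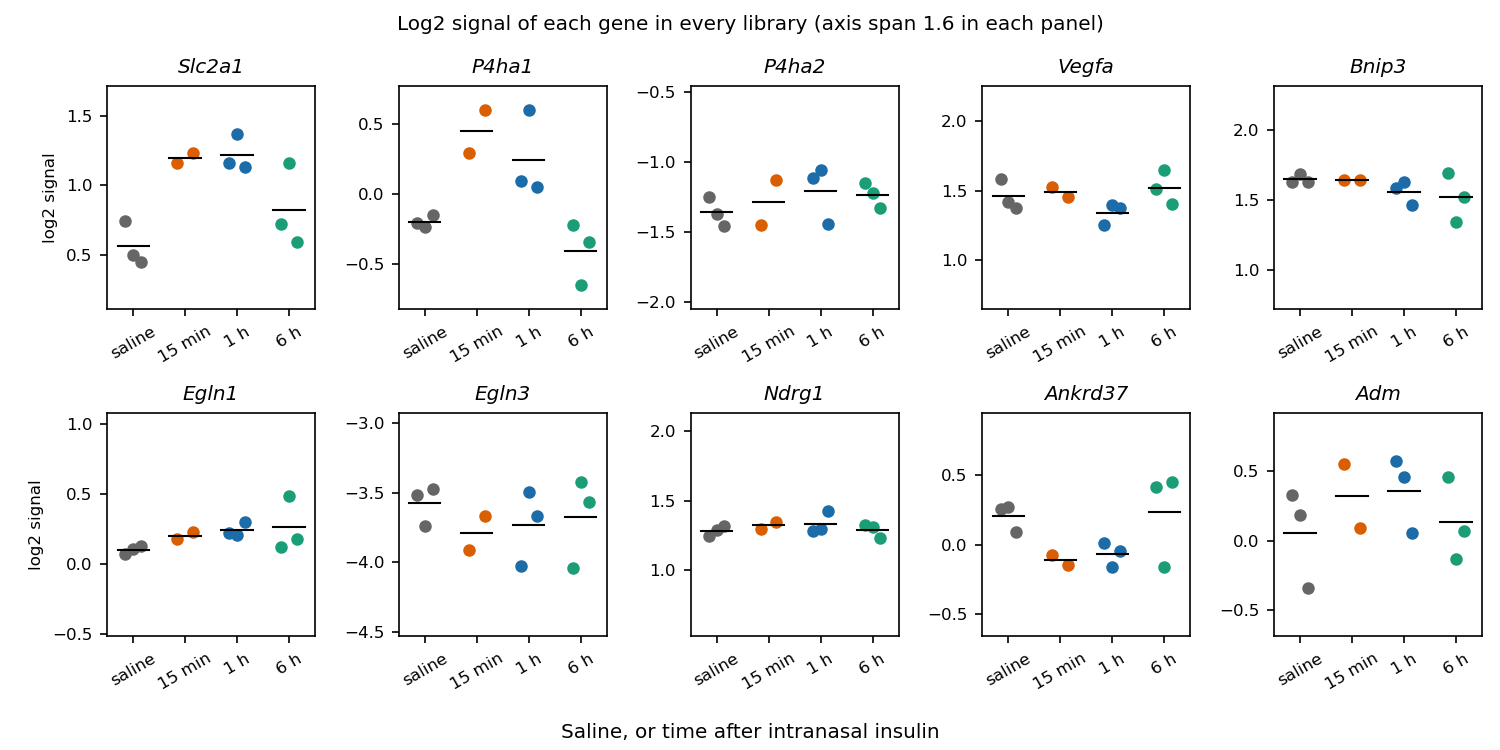
Log2 signal of the 10 genes in every library (points) with the group mean (line), for saline and for 15 min, 1 h and 6 h after insulin. Each panel spans the same 1.6 log2 units. Slc2a1 and P4ha1 are above saline in all 5 libraries of 15 min and 1 h, Ankrd37 is below saline in the same 5, and the points of Ndrg1 and Vegfa stay close together.

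P4ha1 and P4ha2 encode alternative catalytic subunits of the collagen prolyl 4-hydroxylase, which hydroxylates proline in collagen chains as they are made. P4ha1, on chr10:59323197-59373304 (forward strand), had log2 signals of -0.21, -0.24 and -0.15 with saline. They were 0.30 and 0.60 at 15 min, 0.090, 0.60 and 0.050 at 1 h, and -0.23, -0.65 and -0.34 at 6 h. The early libraries all lay above saline, with replicate 3 at 15 min and replicate 2 at 1 h the highest, and at 6 h 2 of the 3 libraries lay below all saline libraries.

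P4ha1 averaged 0.45 ± 0.22 at 15 min against -0.20 ± 0.042 with saline (SD, n = 2 and n = 3), a log2 change of 0.65 (SE 0.18, 1.57-fold, limma adjusted p = 0.168). At 1 h it averaged 0.25 ± 0.31, a log2 change of 0.45 (SE 0.16, 1.36-fold, limma adjusted p = 0.223), which was 0.27 without 1 h replicate 2. At 6 h it averaged -0.41 ± 0.22, a log2 change of -0.21 (SE 0.16, limma adjusted p = 0.757), which was -0.085 without replicate 2. The groups ran, by mean, 15 min, 1 h, saline, 6 h, and of these neighbours 1 h and saline alone did not overlap.

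P4ha2, on chr11:54100924-54131668 (forward strand), had log2 signals of -1.25, -1.37 and -1.45 with saline, -1.45 and -1.13 at 15 min, -1.11, -1.05 and -1.44 at 1 h, and -1.15, -1.22 and -1.33 at 6 h. Every insulin group overlapped saline. Its log2 changes were 0.070 at 15 min, 0.15 at 1 h and 0.12 at 6 h (limma adjusted p = 0.858, 0.623 and 0.814), with 95% intervals that reached 0.40, 0.45 and 0.42 at their upper ends. Whether P4ha1 and P4ha2 differed from each other in their change was not tested.

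Since Slc2a1 and P4ha1 stood above saline together and P4ha2, which encodes the alternative subunit to P4ha1, overlapped it, upstream bases of the 3 genes are shown, from the RefSeq promoter windows of GRCm38.p6. Each stretch ends where the earliest annotated transcript of its gene begins, which for P4ha1 lies upstream of the start used for its window. The Slc2a1 stretch is chr4:119108495-119108744, that of P4ha1 chr10:59323046-59323196 and that of P4ha2 chr11:54100674-54100923, all on the forward strand, 5′ to 3′. Capitals mark ACGTG or GCGTG, the core of the hypoxia response element, read on either strand (so CACGT and CACGC are capitals too).
Slc2a1: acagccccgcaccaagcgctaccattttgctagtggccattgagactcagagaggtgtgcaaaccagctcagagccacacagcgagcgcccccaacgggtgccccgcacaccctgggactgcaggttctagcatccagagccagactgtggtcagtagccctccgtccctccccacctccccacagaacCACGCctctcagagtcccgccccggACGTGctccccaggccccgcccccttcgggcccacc
P4ha1: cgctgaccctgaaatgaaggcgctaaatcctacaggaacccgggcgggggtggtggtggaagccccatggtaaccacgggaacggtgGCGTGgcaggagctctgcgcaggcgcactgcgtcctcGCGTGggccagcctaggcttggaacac
P4ha2: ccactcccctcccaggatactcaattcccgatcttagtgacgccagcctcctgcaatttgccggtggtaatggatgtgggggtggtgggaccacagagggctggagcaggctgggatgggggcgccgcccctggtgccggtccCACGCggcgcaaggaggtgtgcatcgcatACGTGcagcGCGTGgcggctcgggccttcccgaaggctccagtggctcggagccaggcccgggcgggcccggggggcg

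The Slc2a1 stretch holds 2 matches, that of P4ha1 2 and that of P4ha2 3. In the full windows, 250 bases before to 50 after the start, Slc2a1 had 2 matches, P4ha1 3 and P4ha2 4. The third match of P4ha1 starts 16 bases upstream of its window's start site, in the part not printed. A window was found for 9 of the 10 genes, with 2 windows for Vegfa. Of these 10 windows 9 held at least 1 match and 8 held at least 2, beside 43.8% and 20.6% of the 32851 windows of all genes. The members' windows had a GC content of 54.7% to 86.0%, beside a median of 52.7% over all windows, and the motif itself is rich in G and C. The genes were also taken as known responders to low oxygen, so more matches than in all genes may follow from that choice. A match is a run of letters and not a shown binding site.

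Egln1 and Egln3 encode 2 of the HIF prolyl hydroxylases, the oxygen sensors that are themselves raised by HIF. Egln1, on chr8:124908587-124949254 (reverse strand), had log2 signals of 0.073, 0.11 and 0.13 with saline, 0.18 and 0.23 at 15 min, 0.22, 0.21 and 0.30 at 1 h, and 0.12, 0.49 and 0.18 at 6 h. The early libraries lay above all saline libraries by a narrow margin, and 6 h replicate 2 was the highest of all 11. The log2 change was 0.10, 0.14 and 0.16 in order of time (limma adjusted p = 0.681, 0.523 and 0.721), and the change at 6 h was 0.050 without replicate 2.

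Egln3, on chr12:54178981-54203874 (reverse strand), was the one member below the library median in each library, at the 44.2 to 48.4 percentile of the values per gene span. In log2 signal it measured -3.52, -3.74 and -3.47 with saline, -3.91 and -3.67 at 15 min, -4.03, -3.50 and -3.67 at 1 h, and -4.04, -3.42 and -3.57 at 6 h. Every insulin group overlapped saline, and the log2 changes were -0.21, -0.15 and -0.099 in order of time (limma adjusted p = 0.71, 0.785 and 0.909). Relative to all other rows the first 2 changes have no fixed sign, since cyclic loess scaling gave 0.049 at 15 min and 0.049 at 1 h.

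Vegfa encodes the main growth factor of blood vessels, and Adm encodes adrenomedullin, a peptide that widens vessels. Vegfa, on chr17:46016993-46032377 (reverse strand), had log2 signals of 1.58, 1.42 and 1.38 with saline, 1.53 and 1.45 at 15 min, 1.25, 1.40 and 1.38 at 1 h, and 1.51, 1.64 and 1.41 at 6 h. All groups overlapped saline. The log2 changes were 0.030, -0.12 and 0.062 in order of time (limma adjusted p = 0.91, 0.556 and 0.849), and at 1 h the sign turned under median centring, to 0.024. The 95% interval at 1 h ran from -0.30 to 0.071.

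Adm, on chr7:110627657-110629820 (forward strand), had the widest spread of the 10 genes, a pooled SD within groups of 0.31. Its log2 signal was 0.33, 0.18 and -0.34 with saline, 0.55 and 0.088 at 15 min, 0.57, 0.45 and 0.051 at 1 h, and 0.46, -0.13 and 0.072 at 6 h. Each insulin group overlapped saline, whose replicate 3 was the lowest library of all. The log2 changes were 0.26, 0.30 and 0.076 in order of time (limma adjusted p = 0.641, 0.558 and 0.933). Without saline replicate 3 the first 2 were 0.063 and 0.10, and leaving out 1 library at a time they ran from 0.032 (without 15 min replicate 1) to 0.49 (without 15 min replicate 3) and from 0.10 to 0.45 (without 1 h replicate 3). The Adm locus is wholly covered by an antisense gene, Gm28863, and whether strand was used in counting is not given in the sources used here, so reads of the pair may be mixed. The same limit holds for parts of other GENCODE spans, namely Slc2a1 (Gm12868, 14.5%), Bnip3 (Gm45507, 19.9%) and Ndrg1 (Gm17035, 3.72%). Gm46060, whose strand is not given, covers 24.5% of the RefSeq span of Egln1.

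Bnip3 encodes a mitochondrial outer membrane protein that acts as a mitophagy receptor, and Ndrg1 a cytoplasmic protein raised by hypoxia and cell stress. Bnip3, on chr7:138890836-138909506 (reverse strand), had log2 signals of 1.63, 1.69 and 1.63 with saline, 1.64 and 1.64 at 15 min, 1.59, 1.63 and 1.46 at 1 h, and 1.69, 1.34 and 1.52 at 6 h. The insulin groups overlapped saline, and 6 h replicate 2 was the lowest of the 11 libraries. The log2 changes were -0.0068, -0.088 and -0.13 in order of time (limma adjusted p = 0.982, 0.679 and 0.74), and the first 2 turned to 0.16 and 0.051 under median centring.

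Ndrg1, on chr15:66929318-66969641 (reverse strand), was the steadiest of the 10 genes, with a pooled SD of 0.056, below which lay 1.72% of all rows. The pooled SD of all complete rows had a median of 0.23. Its log2 signal was 1.25, 1.29 and 1.32 with saline, 1.30 and 1.35 at 15 min, 1.28, 1.29 and 1.43 at 1 h, and 1.32, 1.31 and 1.23 at 6 h. All groups overlapped, with log2 changes of 0.040, 0.052 and 0.0060 (limma adjusted p = 0.831, 0.749 and 0.984). The 95% intervals allowed a change of at most 0.20 in either direction at each time.

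Ankrd37, an ankyrin repeat gene known as a HIF target, lies on chr8:45996908-46000414 (reverse strand). Its log2 signal was 0.25, 0.27 and 0.088 with saline, -0.075 and -0.15 at 15 min, 0.0083, -0.16 and -0.046 at 1 h, and 0.41, -0.16 and 0.45 at 6 h. All 5 early libraries lay below saline, and at 6 h replicates 1 and 3 lay above saline while replicate 2 lay below it. The log2 change was -0.31 at 15 min (SE 0.16, limma adjusted p = 0.4), -0.27 at 1 h (SE 0.15, limma adjusted p = 0.421) and 0.029 at 6 h (limma adjusted p = 0.962). The median of all rows was itself -0.14 at 15 min and -0.11 at 1 h. In GENCODE, whose Ankrd37 span is longer than the RefSeq span given above, Lrp2bp on the other strand overlaps 72.7% of it. For the RefSeq span the only overlapping gene found was Ufsp2, by 51 bases (1.45%). Lrp2bp changed by -0.019, -0.30 and 0.053 without passing the test (limma adjusted p = 0.984, 0.669 and 0.965).

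**Figure D3:**
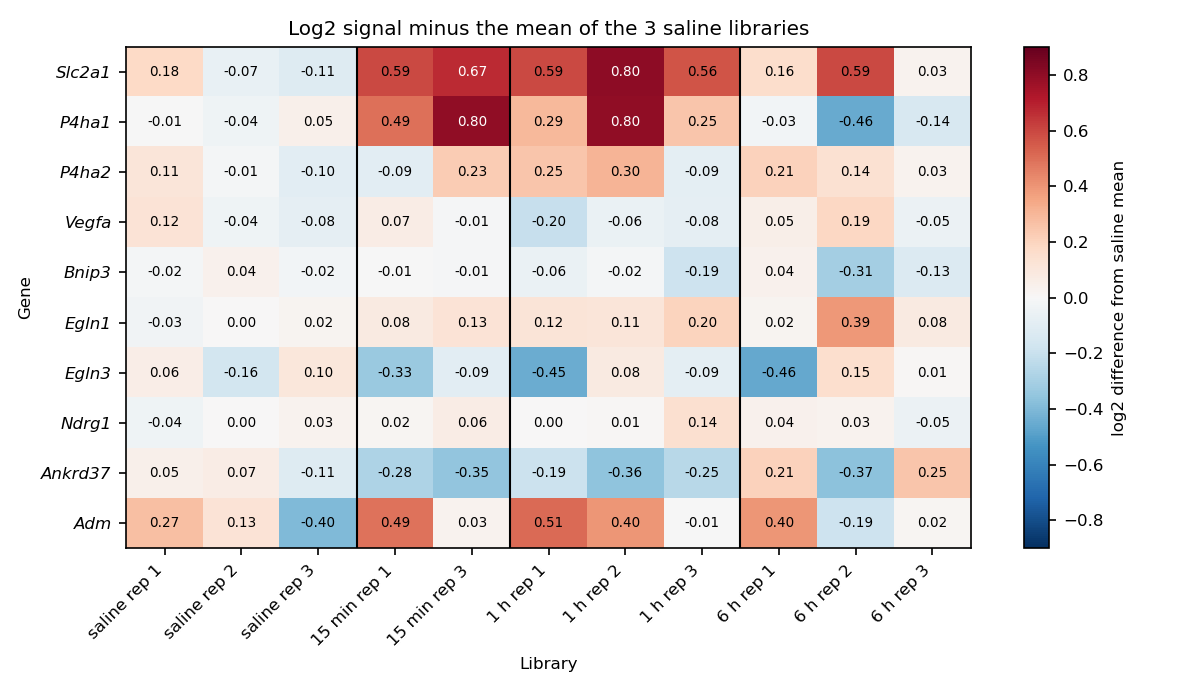
Log2 signal of the 10 genes in each of the 11 libraries minus the mean of the 3 saline libraries; red is above and blue is below that mean. Slc2a1 and P4ha1 are red in the 5 libraries of 15 min and 1 h, and Ankrd37 is blue in the same 5. In Slc2a1, P4ha1, Egln1 and Ankrd37, 6 h replicate 2 lies apart from the other 6 h libraries.

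Across the 11 libraries the 10 genes did not share 1 pattern. Pearson's r of Slc2a1 was 0.60 with P4ha1 (Spearman's rho 0.70), 0.58 with Egln1 (rho 0.55), 0.018 with Vegfa (rho 0.12) and -0.82 with Ankrd37 (rho -0.77). P4ha1 and P4ha2 had an r of 0.31 (rho 0.26), and Bnip3 and Egln1 an r of -0.88 (rho -0.64). These values describe the libraries and mix differences between groups with those within groups, and all genes of a library share its normalization.

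**Figure D4:**
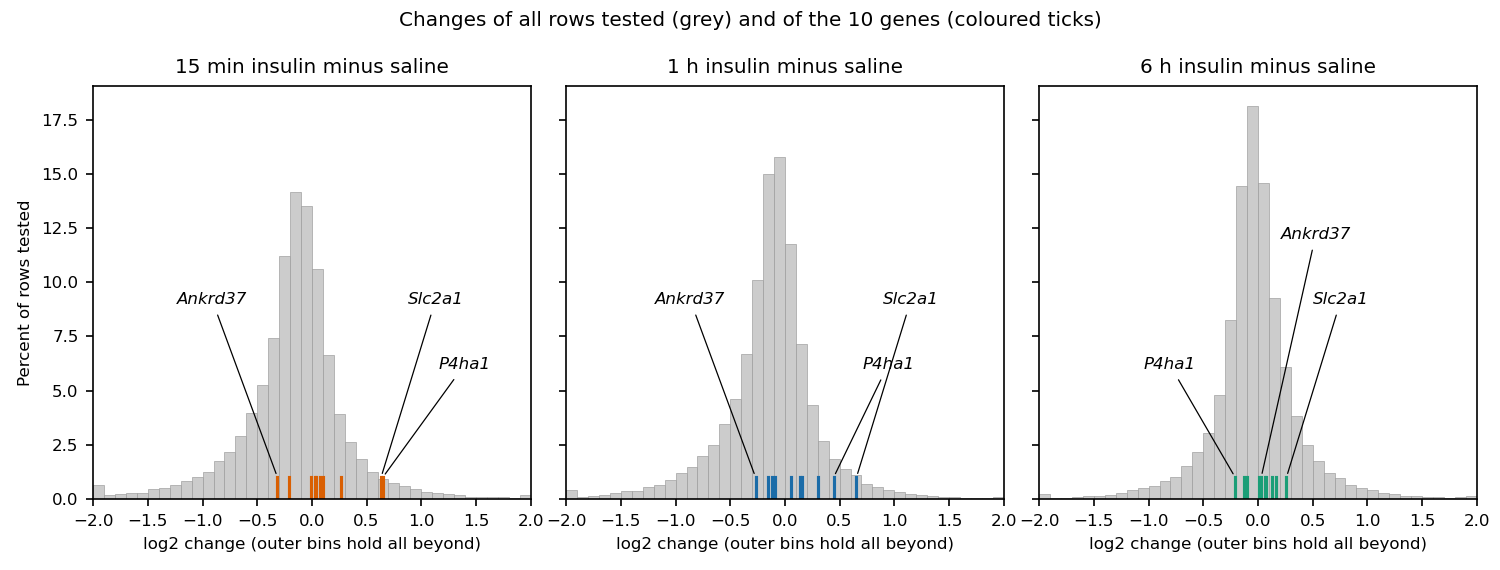
Distribution of log2 changes of all rows tested against saline (grey, percent of rows per bin of 0.1) at 15 min, 1 h and 6 h, with the 10 genes as coloured ticks. At 15 min and 1 h Slc2a1 lies in the right flank, with 4.11% and 3.48% of rows beyond it, while at 6 h the 10 genes sit near the middle.

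Between insulin times, no member passed either. Comparing 6 h with 15 min, 0 of 10 genes and 0.00723% of all rows passed, with 2 of 10 at an unadjusted p under 0.05, beside 14.2% of all rows. P4ha1 was -0.41 ± 0.22 at 6 h against 0.45 ± 0.22 at 15 min (SD, n = 3 and n = 2), a log2 change of -0.86 (SE 0.18, limma adjusted p = 0.164). Slc2a1 was 0.83 ± 0.29 at 6 h against 1.20 ± 0.052 at 15 min, a log2 change of -0.37 (SE 0.16, limma adjusted p = 0.329). For both genes every 6 h library lay below every 15 min library, as it did for 7.08% of all rows.

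Comparing 6 h with 1 h, 0 of 10 genes and 0.0108% of all rows passed, again with 2 of 10 at an unadjusted p under 0.05, beside 11.1% of all rows. P4ha1 differed by -0.65 (SE 0.16, limma adjusted p = 0.221) and lay below 1 h in every 6 h library, as 3.17% of all rows did. Slc2a1 differed by -0.39 (SE 0.14, limma adjusted p = 0.336), with overlapping libraries. Vegfa lay above 1 h in every 6 h library, as 13.3% of all rows did, with a log2 change of 0.18 (limma adjusted p = 0.476), or 0.12 without 6 h replicate 2. Ankrd37 was 0.34 higher in mean log2 signal at 6 h than at 15 min and 0.30 higher than at 1 h, with overlapping libraries (limma adjusted p = 0.379 and 0.494). Without 6 h replicate 2 these differences were 0.54 and 0.50, and without 6 h replicate 3 that to 1 h was 0.19.

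Comparing 1 h with 15 min, 0 of 10 genes and 0% of all rows passed in limma, with 0 of 10 at an unadjusted p under 0.05, beside 3.49% of all rows. Bnip3 and Vegfa lay below 15 min in every 1 h library, as 6.42% of all rows did, by 0.082 and 0.15 in mean log2 signal (limma adjusted p = 1 for each). In the F test over the 3 insulin times, 0 of 10 genes and 0.365% of all rows passed, with limma adjusted p of 0.149 for Slc2a1 and 0.128 for P4ha1.

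The precision of these comparisons can be read from the 95% intervals. The interval lay within 0.5 log2 units of 0 in either direction for 5 of the 10 genes at 15 min, 5 at 1 h and 6 at 6 h. It lay within 1 log2 unit for 9, 10 and 10 genes, the exception being P4ha1 at 15 min, whose interval ran from 0.25 to 1.05. Smaller changes than these bounds are not excluded for the genes named. Leaving out 1 library moved small changes by over 1.5 times in other genes too. For P4ha2 the change ran from 0.081 to 0.28 at 1 h and from 0.076 to 0.18 at 6 h. For Egln3 it ran from -0.33 to -0.091 at 15 min and from -0.27 to -0.0035 at 1 h. For Bnip3 it ran from -0.12 to -0.039 at 1 h and from -0.22 to -0.042 at 6 h, for Vegfa from -0.16 to -0.054 at 1 h, and for Ndrg1 from 0.015 to 0.065 at 15 min and from 0.0058 to 0.077 at 1 h.

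The genes that control the pathway showed no call. Of 26 tested HIF subunits and oxygen-sensing regulators, 0 passed in limma at 15 min, 1 h or 6 h. At an unadjusted p under 0.05 there were 7, 6 and 2, beside 15.1%, 15.7% and 6.98% of all rows. Hif1a, the alpha subunit induced most widely by hypoxia, had a log2 change of 0.041, -0.0020 and -0.043 in order of time, with limma adjusted p of 0.863, 0.994 and 0.892. Epas1, which encodes HIF-2 alpha and is strong in endothelium, differed by 0.54, 0.39 and 0.20 (limma adjusted p = 0.407, 0.508 and 0.84). Egln2, the third HIF prolyl hydroxylase, differed by 0.031, 0.15 and 0.11 (limma adjusted p = 0.889, 0.386 and 0.743).

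Hif3a, which encodes a further alpha subunit with forms that restrain HIF, lay above saline in every insulin library. Its log2 signal was -2.76, -2.75 and -2.38 with saline, -2.08 and -1.66 at 15 min, -1.83, -1.82 and -1.79 at 1 h, and -1.98, -1.12 and -1.81 at 6 h. Counted at each time alone, 6.96%, 6.27% and 4.31% of all rows lay wholly above saline in order of time. The share for all insulin libraries together is not given here. The Hif3a log2 changes were 0.76, 0.82 and 0.99 (limma adjusted p = 0.205, 0.115 and 0.467). Without 6 h replicate 2 the limma adjusted p at 1 h was 0.0363, in a fit where 477 rows passed instead of 243. Mcm7, whose product binds HIF alpha subunits, differed by -0.38 at 15 min (limma adjusted p = 0.161).

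Among 62 other tested hypoxia-responsive genes, 0 passed at 15 min and at 6 h in limma, and 2 fell at 1 h, when 0.747% of all rows did. At an unadjusted p under 0.05 there were 4, 10 and 5 in order of time, beside 15.1%, 15.7% and 6.98% of all rows. Eno1, the glycolytic enolase, fell to 2.76, 2.71 and 2.75 at 1 h, against 3.03, 3.05 and 3.00 with saline. The log2 change was -0.29 (SE 0.052, limma adjusted p = 0.0368), and it was a call in 1 of the 11 fits that left out 1 library, the one without 6 h replicate 2. Rora, a nuclear receptor, fell to 0.28, 0.29 and 0.17 at 1 h, against 0.91, 0.80 and 0.84 with saline, by 0.60 on the log2 scale (SE 0.10, limma adjusted p = 0.0324). That call was lost without any 1 of the saline or 1 h libraries. The list's median log2 change was -0.057, -0.023 and -0.011 in order of time.

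Ddit4, an inhibitor of mTORC1 signalling that hypoxia and glucocorticoids both induce, stands in the same list. Its log2 signal was 2.95, 2.92 and 3.32 with saline, 3.89 and 3.55 at 15 min, 3.85, 3.79 and 3.59 at 1 h, and 3.63, 3.84 and 3.55 at 6 h. Every insulin library lay above every saline library. Counted at each time alone, that held for 6.96%, 6.27% and 4.31% of all rows in order of time. The share for all insulin libraries together is not given here. The Ddit4 log2 change was 0.66, 0.68 and 0.61 in order of time (limma adjusted p = 0.119, 0.0539 and 0.467). Over all insulin libraries it rose by 0.65 (SE 0.10, limma adjusted p = 0.0353), a call kept in 1 of the 11 fits that left out 1 library, the one without 6 h replicate 1.

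Of 23 tested sugar transporters and hexokinases, 0 passed in limma at each time against saline. At an unadjusted p under 0.05 there were 4, 3 and 2, beside 15.1%, 15.7% and 6.98% of all rows. Slc2a3 (GLUT3), the main neuronal glucose transporter, differed from saline by -0.088, 0.018 and 0.017 (limma adjusted p = 0.661, 0.939 and 0.957). Slc2a6 was 0.69, 0.60 and 0.70 in log2 signal at 1 h against 1.27, 1.29 and 0.99 with saline, a log2 change of -0.52 (limma adjusted p = 0.0591). Slc2a5, the fructose transporter, differed by -0.80 at 15 min (limma adjusted p = 0.116). Whether Slc2a1 differed from these transporters in its change was not tested.

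The partners of the other members gave no call against saline in limma. Over all rows, 15.1%, 15.7% and 6.98% had an unadjusted p under 0.05 in order of time. Of 21 VEGF and adrenomedullin ligands and receptors, 0 passed, with 3, 3 and 2 at an unadjusted p under 0.05 in order of time. Tek, the angiopoietin receptor of endothelium, differed by -0.71 at 1 h (limma adjusted p = 0.0836), and Calca, which encodes a peptide of the adrenomedullin family, by -0.90 at 15 min (limma adjusted p = 0.206). Of 19 collagen-modifying and NDRG family genes, 0 passed, with 2, 3 and 1 at an unadjusted p under 0.05. P3h1, a collagen prolyl 3-hydroxylase, differed by -0.42 at 15 min (limma adjusted p = 0.179) and Ppib, which binds it, by -0.16 at 1 h (limma adjusted p = 0.24). Of 17 mitophagy and BNIP family genes, 0 passed, with 5, 4 and 1 at an unadjusted p under 0.05. Park2 (parkin) differed by -0.68 at 1 h (limma adjusted p = 0.0747) and Gabarap, an autophagosome protein, by -0.27 at 15 min (limma adjusted p = 0.132).

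The 5 genes whose pattern over the 11 libraries was most like that of Slc2a1, among 16563 rows with names and no missing value, were Lzts2 (r 0.95, rho 0.82), Rab40c (r 0.92, rho 0.75), Wbp1l (r 0.92, rho 0.86), Fzd7 (r 0.92, rho 0.80) and Jdp2 (r 0.92, rho 0.94). Fzd7 encodes a Wnt receptor, and Jdp2 a partner of AP-1 factors. Lzts2 had a log2 signal of 1.73, 1.91 and 1.87 at 1 h against 1.41, 1.27 and 1.30 with saline, a log2 change of 0.51 (limma adjusted p = 0.0782). The choice of these genes fixes that they follow the library pattern of Slc2a1. Wbp1l rose at 1 h by 0.51 on the log2 scale (limma adjusted p = 0.0488), a call kept in 2 of the 11 fits that left out 1 library, those without 6 h replicate 1 or 2. Fzd7 differed by 0.79 at 1 h (limma adjusted p = 0.0618). No member of the hypoxia set was among the 5.

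Lists of other responses held calls at the times when Slc2a1 and P4ha1 stood above saline. Over all rows, 0.0434% were called higher at 15 min and 0.13% at 1 h in limma. At 6 h 0% of all rows passed and 6.98% had an unadjusted p under 0.05. Of 28 immediate early genes, 6 rose at 15 min and 6 at 1 h and none passed at 6 h in limma, where 5 had an unadjusted p under 0.05, and their median log2 change was 0.74, 0.59 and 0.13. Fos, an AP-1 subunit induced by neuronal activity, rose by 1.64 at 15 min and by 1.36 at 1 h (log2, limma adjusted p = 0.0034 and 0.00207). Of 20 glucocorticoid-responsive genes, 3 rose at 15 min (Sgk1, Fkbp5 and Pdk4) and 5 at 1 h, with 0 at 6 h, where 9 had an unadjusted p under 0.05. Their median log2 change was 0.59, 0.63 and 0.36. The part of these responses in the Slc2a1 and P4ha1 values was not tested.

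The summed markers of endothelium and of mural cells lay below every saline library in all libraries of 15 min and 1 h. Those of mural cells did so at 6 h too. Of single rows, 31.1%, 21.5% and 8.78% lay wholly below saline in order of time, a share of single genes and not of sums. The median log2 change of the endothelial markers was -0.23, -0.13 and -0.17 in order of time. That of the mural markers was -0.32, -0.36 and -0.083, beside -0.14, -0.11 and -0.039 for all rows. The summed linear signal of 18 endothelial markers, all with a value in every library, was 14.1 to 17.3 at 15 min, 15.8 to 17.1 at 1 h, 17.0 to 20.5 at 6 h and 17.6 to 24.5 with saline. The 12 pericyte and mural markers summed to 9.54 to 10.6 at 15 min, 9.57 to 12.0 at 1 h, 9.94 to 11.9 at 6 h and 12.8 to 13.4 with saline. No marker of either kind passed the test in limma against saline. Over all rows, 15.1%, 15.7% and 6.98% had an unadjusted p under 0.05 in order of time. Among the markers, 7, 6 and 4 endothelial and 4, 4 and 2 mural genes did. Of these, all mural genes were below saline, and 6, 5 and 3 of the endothelial genes were. The endothelial genes above saline, named after their values were seen, were Vwf at 15 min, Sox17 at 1 h and Mfsd2a at 6 h. Vwf, which encodes von Willebrand factor and had the smallest p of the list at 15 min, averaged -3.79 at 15 min against -4.84 with saline, a log2 change of 1.05 without overlap (limma adjusted p = 0.106). Sox17 averaged -1.23 at 1 h against -1.65 with saline, and Mfsd2a 0.33 at 6 h against 0.028 with saline, both without overlap (limma adjusted p = 0.169 and 0.702).

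The 14 astrocyte markers summed to 278 to 288 at 15 min, 270 to 295 at 1 h, 278 to 302 at 6 h and 270 to 289 with saline, and the 12 neuron markers to 177 to 180, 162 to 191, 163 to 185 and 177 to 195 in the same order. The 14 oligodendrocyte markers summed to 258 to 265, 215 to 279, 240 to 271 and 242 to 282. The 10 blood cell markers found summed to 65.2 to 132, 85.3 to 140, 64.3 to 80.8 and 89.9 to 112, with Alas2 without a value in at least 1 library of each insulin time. The 12 choroid plexus markers summed to 32.1 to 142, 5.12 to 95.9, 3.04 to 27.1 and 44.4 to 66.8, with Kcnj13 without a value in at least 1 library at 6 h. At 6 h the choroid plexus and blood cell sums lay below every saline library. Of single rows, 8.78% did. No marker of these lists passed the test. In order of time, 15.1%, 15.7% and 6.98% of all rows had an unadjusted p under 0.05. So did 2, 1 and 1 of 14 astrocyte and 3, 0 and 0 of 12 neuron markers. Of 14 oligodendrocyte markers 1, 4 and 2 did, and of 9 tested blood cell markers 0, 1 and 0. Of 11 tested choroid plexus markers 0, 0 and 4 did, the 4 all below saline. The list's median log2 change at 6 h was -1.74. The part of these cell types in the results of the 10 genes was not tested.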

How the data were processed

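The deposited table holds 1 log2 score per gene symbol and library, marked as missing where a gene had no value. It was recorded as a score because of these marks and treated as log2 throughout. Tools and build named in the submitters' processing notes, with no role given, are GRCm38, Partek 6.7 and bcl2fastq. The aligner and counter were not given in the sources used here. Judged by its values, the authors' table is quantile-normalized: every library has a minimum of -13.64, a median of -3.20 and a maximum of 16.00. The depth is unknown, so no counting interval was given, and 1 missing replicate was not analysed here.

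Summed over genes, the linear values multiplied by kilobases of RefSeq gene span gave 840133 to 1120960 per library and by kilobases of exons 204129 to 215245. The gene span reading rests on the values alone.

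The lowest 40% of rows by mean were dropped. All 10 genes were among the 27721 rows tested, of which 1950 had a missing value. One model with 4 group means was fitted to all 11 libraries with limma 3.58.1 in R 4.3.3, with a mean-variance trend. Tests were two-sided with Benjamini-Hochberg adjustment at 0.05 over all rows tested. A fold is 2 raised to the log2 change, and ± is the SD between libraries. The scripts were tested on simulated data.

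The 10 genes and all lists were chosen with earlier results of these data known, and the hippocampal markers and the between-time values recomputed under alternatives were chosen after values were seen. Of each further list, every gene past the threshold against saline was named (at most 4 in a direction), otherwise the 2 with the smallest p, and always Hif1a, Epas1, Egln2, Ddit4 and Slc2a3. The result of the microglia marker list is not reported here. For the other marker lists the summed signal and the counts stand in place of the 2 genes, and of the response lists fewer genes are named. Genes most like Slc2a1 were the 5 with the highest Pearson's r, predicted and clone names passed over. Promoter windows and coordinates are RefSeq's for GRCm38.p6, with overlaps also from GENCODE. Alternatives were other filters, scalings, an offset of 0.1, other fits and leaving out each library.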

Additional observations from a re-analysis of the deposited data

How the results depend on the processing

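Each of 73 values, 38 of them of the 10 genes, was recomputed under 8 other settings and in 11 fits that each left out 1 library. The number of the 10 genes past the threshold stayed at 0 in every comparison under the 8 settings, and when leaving out 1 library it ran from 0 to 1 at 1 h and in the F test and stayed at 0 elsewhere. The 1 gene was Slc2a1, without 6 h replicate 2, and the cause was not tested. Its adjusted p at 1 h ran from 0.0192 to 0.23 over the fits without 1 library, and at 15 min from 0.0518 to 0.552. Over all rows, the calls at 15 min were 66, against 37 under cyclic loess, 38 with a replicate block, 1 with only the 2 groups fitted, 114 without the variance trend and 5 to 103 without 1 library. At 1 h they were 243, against 159, 138 and 42 to 477 with the block, the 2 groups and without 1 library. The 477 were found without 6 h replicate 2, the fit in which Slc2a1 passed.

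Small changes turned in sign, with no cause tested. Under cyclic loess Bnip3 was 0.047 and Egln3 0.049 at 15 min, and Egln3 0.049 and Hif1a 0.048 at 1 h. Under median centring Bnip3 was 0.16 and Slc2a3 0.084 at 15 min, and Vegfa 0.024, Bnip3 0.051 and Hif1a 0.14 at 1 h. These scalings bring the median of all rows to 0.00066 or 0.036 at 15 min and to -0.0028 or 0.034 at 1 h, by construction. Without 1 library the 6 h change ran from -0.012 to 0.036 for Ndrg1, -0.079 to 0.23 for Ankrd37, -0.12 to 0.21 for Adm, -0.23 to 0.081 for Egln3, -0.00046 to 0.12 for Vegfa, -0.097 to 0.032 for Hif1a, -0.12 to 0.43 for Epas1 and -0.046 to 0.076 for Slc2a3. The 15 min change ran from -0.018 to 0.013 for Bnip3, -0.011 to 0.091 for Vegfa, -0.014 to 0.090 for Egln2 and -0.092 to 0.23 for P4ha2, and the 1 h change from -0.030 to 0.034 for Hif1a and -0.0063 to 0.047 for Slc2a3. The calls of Eno1, Rora, Wbp1l and Ddit4 were also lost under some settings (for Eno1 and Rora under median centring, adjusted p was 0.373 and 0.129). Conversely, Ddit4, Fzd7, Slc2a6 and Lzts2 at 1 h and Slc2a5 at 15 min passed under at least 1 of the 8 settings.

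Whether replicate numbers pair the libraries cannot be settled here, since deviations within groups of 2 or 3 libraries depend on each other. Deviations from the group means of same-numbered libraries correlated at 0.029, 0.065 and 0.24 between 1 h and saline, 0.036, -0.054 and 0.087 between 6 h and saline, and 0.086 and 0.20 between 15 min and saline. Between insulin times they ran from -0.056 to 0.24. With the replicate number as a block, 0 of the 10 genes passed in each comparison, and Hif1a at 15 min was -6.64e-05. The 15 min group has 2 libraries, and where 1 is left out the lone library is assumed to vary like the other groups. Read depth is unknown, so its limit on Egln3, the lowest of the 10 genes, cannot be given.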
